A study of Mus musculus with 2 samples.

Results

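The 7 genes described here, Atp1b1, Atp1b2, Atp1b3, Atp2a2, Atp2b1, Atp2b2 and Atp2b3, encode subunits of the pumps that move sodium, potassium and calcium ions across the membranes of brain cells. They were listed by name, with no threshold on their measured values but with earlier results of these data known, and all 7 were found among the 42462 named genes of the deposited tables. Each of 2 libraries was made from laser-captured granule layer, the part of the mouse cerebellum filled with granule neurons. The labels give male adult wild-type mice of strain B6NCrl aged 8 months, 18000 square microns per captured area, 50 cells as the starting quantity, total RNA and a general Smart-seq protocol, which amplifies full-length transcripts from few cells. Both areas form 1 group with n = 2, numbered as biological replicates 1 and 2, under the same donor label. The labels leave unsaid whether 1 animal or 2 were used, so the spread between them may be technical, and the design has no contrast between conditions. The assay is titled single cell RNA-seq, although each library holds an area with several cell types.

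The sodium pump (Na,K-ATPase) uses ATP to carry sodium out of the cell and potassium in, and keeps the ion gradients on which firing and neurotransmitter uptake depend. Its catalytic alpha subunit needs a beta subunit to fold and reach the cell surface, and Atp1b1, Atp1b2 and Atp1b3 encode these beta subunits, not the catalytic ones. Calcium that enters a neuron is removed by plasma membrane calcium pumps (PMCA), encoded by the Atp2b genes and activated by calmodulin, and by the pump of the endoplasmic reticulum (SERCA), which refills the internal calcium store. Atp2a2 encodes SERCA2, so that 6 of the 7 genes belong to pumps of the plasma membrane and 1 to a pump of an internal membrane.

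Alternative splicing gives the calcium pumps different carboxyl ends, and the ends below were those carried by the abundant transcripts. They were read from the GENCODE M21 transcripts on GRCm38 in the 5′ to 3′ direction of the gene. Lower case marks the last 20 bases that both forms of a gene share, and capitals mark coding bases that are particular to the named form. For Atp2b3-203 the capitals cover only the exon shown, and not all coding bases that are particular to that form. The capitals of Atp2a2-201 lie at chr5:122457154-122457302 and those of Atp2a2-202 at chr5:122454294-122454304, both on the minus strand. The capitals of Atp2b3-203 are a whole exon at chrX:73559864-73560017, and those of Atp2b3-201 lie at chrX:73558032-73558121, both on the plus strand.
Atp2a2-201 end: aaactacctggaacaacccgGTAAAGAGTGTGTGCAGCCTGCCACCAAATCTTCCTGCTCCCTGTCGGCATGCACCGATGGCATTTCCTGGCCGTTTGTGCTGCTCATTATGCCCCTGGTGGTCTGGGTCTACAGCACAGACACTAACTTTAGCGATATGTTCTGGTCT
Atp2a2-202 end: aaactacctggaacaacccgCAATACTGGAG
Atp2b3-203 exon: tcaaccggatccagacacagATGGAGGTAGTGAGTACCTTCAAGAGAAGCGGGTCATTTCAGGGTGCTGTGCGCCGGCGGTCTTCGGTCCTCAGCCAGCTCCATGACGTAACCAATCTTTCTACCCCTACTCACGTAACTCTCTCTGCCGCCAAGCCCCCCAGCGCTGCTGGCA
Atp2b3-201 end: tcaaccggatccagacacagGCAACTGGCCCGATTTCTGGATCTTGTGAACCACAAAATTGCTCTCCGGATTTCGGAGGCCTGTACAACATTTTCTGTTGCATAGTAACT
The form Atp2a2-201 adds 149 coding bases after the shared part, and Atp2a2-202 adds 11. For Atp2b3, the exon of Atp2b3-203 has 154 bases and the other end has 90 coding bases.

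Atp2b2 has a distal, a middle and a proximal start, and the 250 bases before each RefSeq start are shown because the data divide the gene's transcripts among them. The sequences are from RefSeq on GRCm38.p6, read 5′ to 3′ on the minus strand, and capitals mark a match to the GC box letters GGGCGG or their reverse complement CCGCCC. The distal window lies at chr6:114042081-114042330, the middle one at chr6:113934682-113934931 and the proximal one at chr6:113891540-113891789.
Atp2b2 distal: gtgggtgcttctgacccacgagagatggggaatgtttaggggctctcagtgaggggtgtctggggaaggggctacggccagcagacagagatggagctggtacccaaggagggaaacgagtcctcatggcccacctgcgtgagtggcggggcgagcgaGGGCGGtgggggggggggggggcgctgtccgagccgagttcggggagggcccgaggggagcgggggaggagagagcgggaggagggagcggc
Atp2b2 middle: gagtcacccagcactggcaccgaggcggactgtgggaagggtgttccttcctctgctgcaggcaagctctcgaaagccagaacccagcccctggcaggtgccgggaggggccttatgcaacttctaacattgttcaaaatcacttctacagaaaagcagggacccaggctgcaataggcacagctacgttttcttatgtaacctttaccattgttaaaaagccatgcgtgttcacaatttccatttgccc
Atp2b2 proximal: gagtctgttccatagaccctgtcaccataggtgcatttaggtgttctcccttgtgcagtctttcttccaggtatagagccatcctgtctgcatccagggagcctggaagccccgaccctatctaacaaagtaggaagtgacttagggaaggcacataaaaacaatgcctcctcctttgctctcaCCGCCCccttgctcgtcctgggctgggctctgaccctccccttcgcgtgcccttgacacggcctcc
The distal window had a GC content of 69.6% and 16 CpG pairs. Its GC content lay at percentile 90.2 and its CpG pairs at percentile 74.6 of 32851 mouse promoters of the same length. The proximal window had 55.6% and 6 CpG pairs, and the middle one 52.0% and 6, beside medians of 52.4% and 6 over all promoters. The GC box letters occurred in the distal and the proximal window and in 32.7% of all promoters. The TATA box letters TATAAA, or TTTATA on the other strand, occurred in none of the 3 windows and in 12.4% of all promoters. These matches are of letters and do not show a bound factor.

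The captured areas carried the markers of granule neurons. The 8 listed granule neuron markers were all detected in both areas, and their TPM (transcripts per 1e6, a level per transcript length) summed to 2773 in replicate 1 and 3034 in replicate 2. Gabra6, the GABA receptor subunit typical of granule cells, was at 925 and 1086 TPM. Markers of other cells of the cerebellum were found too. Those of Bergmann glia and astrocytes summed to 630 and 588 TPM, of oligodendrocytes to 590 and 726, of Purkinje cells to 370 and 439, and of endothelial cells to 244 and 194. Levels within a list were uneven, so a sum is carried by its highest genes. In the Purkinje list 7 of 8 genes were detected in both areas, with Gng13 at 140 and 185 TPM but Ppp1r17 at 0.57 and 0.44. In the glia and astrocyte list 7 of 8 were detected in both areas, with Aldoc at 276 and 254 TPM but Gdf10 at 0.07 and 0.05. Red blood cell genes summed to 5040 TPM in replicate 1 and 390 in replicate 2. The libraries held 20532709 and 19939370 expected counts, of which 19962271 and 19261911 fell on annotated genes. In such areas a lower level can mean fewer cells of a type or less RNA per cell, and these cannot be told apart.

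All 7 pump genes were detected in both areas, with 1 TPM or more and 5 expected counts or more in each. Together they took up 936 TPM in replicate 1 and 899 in replicate 2 (918 ± 26.1, SD, n = 2). Their median level was 98.3 TPM, beside 14.3 TPM for the 10817 protein-coding genes detected in both areas. Of the 7, Atp1b1 and Atp1b2 lay above the 90th percentile of those genes, and only Atp2b3 lay below their median.

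Atp1b1, the main beta subunit of the sodium pump, had the highest level. It stood at 452 TPM in replicate 1 and 402 TPM in replicate 2 (427 ± 35.2, SD, n = 2), at percentile 97.8 of the detected protein-coding genes. The gene lies on the minus strand of chromosome 1 (ENSMUSG00000026576.8, chr1:164437109-164458355, mm10, the same assembly as GRCm38). Its values rested on 19160.5 and 16605.7 expected counts. Its lower value was 3.27-fold the higher value of any other pump gene described here, so its level stood apart from the other 6 in both areas. Of its 3081 exonic bases, 575 are also exonic in Nme7 on the opposite strand, a gene at 11.3 and 13.5 TPM. Whether the counting used strand is not given in the sources used here.

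Atp1b2, a beta subunit also known as the adhesion molecule on glia, came next. It was at 112 TPM in replicate 1 and 123 TPM in replicate 2 (118 ± 7.83, SD, n = 2), from 5318 and 5683 counts (ENSMUSG00000041329.9, chr11:69599736-69605942, minus strand). Atp1b3, the third beta subunit and one found in many tissues, was at 100 TPM in replicate 1 and 109 TPM in replicate 2 (105 ± 6.31, SD, n = 2). Its counts were 3179 and 3427.74 (ENSMUSG00000032412.8, chr9:96332655-96364442, minus strand). Both areas placed Atp1b2 above Atp1b3, and the 2 values of each gene did not overlap, although the means differed by only 1.12-fold. Atp1b4, the beta relative known from muscle, had 0 counts in both areas, which allows up to 0.150 and 0.156 counts per 1e6 gene counts, for counting error only.

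Within the summed TPM of the beta subunits, Atp1b1 made up 68.0% in replicate 1 and 63.4% in replicate 2 (65.7% ± 3.29, SD, n = 2). Atp1b2 made up 16.9% and 19.4%, and Atp1b3 15.1% and 17.2%. Each share kept its place in both areas. The beta genes summed to 664 and 634 TPM, which was 3.50-fold and 3.52-fold the sum of the plasma membrane calcium pump genes described next. This is a ratio of RNA levels per length and not of protein.

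Atp2b1 (PMCA1), the plasma membrane calcium pump found in nearly all cells, had the highest level of the calcium pumps. It was at 99.8 TPM in replicate 1 and 96.8 TPM in replicate 2 (98.3 ± 2.14, SD, n = 2), from 12021 and 11333 counts (ENSMUSG00000019943.9, chr10:98914406-99026143, plus strand). Atp2b2 (PMCA2), a fast pump known from Purkinje cells, granule cells and hair cells, was at 76.7 TPM in replicate 1 and 67.7 TPM in replicate 2 (72.2 ± 6.34, SD, n = 2). Its counts were 9077 and 7800 (ENSMUSG00000030302.12, chr6:113743831-114042613, minus strand). Atp2b1 was above Atp2b2 in both areas without overlap.

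Atp2b3 (PMCA3), a calcium pump expressed mainly in the nervous system, was the lowest of the 7. It was at 9.16 TPM in replicate 1 and 11.7 TPM in replicate 2 (10.4 ± 1.77, SD, n = 2), at percentile 41.5 of the detected protein-coding genes. Its counts were 666 and 832 (ENSMUSG00000031376.11, chrX:73503086-73571005, plus strand). Atp2b2 had a mean 6.93-fold higher, the widest step between neighbours in the order of levels. Atp2b4 (PMCA4), which was not among the 7, was lower still at 4.27 and 4.04 TPM.

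Among the plasma membrane calcium pumps, Atp2b1 held 52.5% of the summed TPM in replicate 1 and 53.7% in replicate 2 (53.1% ± 0.817, SD, n = 2). Atp2b2 held 39.0% ± 1.98, Atp2b3 5.65% ± 1.17 and Atp2b4 2.25% ± 0.00458. Atp2b1 and Atp2b2 thus made up most of the PMCA RNA in both areas, in the same order.

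Atp2a2 (SERCA2), the calcium pump of the endoplasmic reticulum in most tissues, was at 86.5 TPM in replicate 1 and 88.8 TPM in replicate 2 (87.6 ± 1.64, SD, n = 2). Its counts were 6348 and 6340 (ENSMUSG00000029467.11, chr5:122453513-122502225, minus strand). It shares 83 of its 6081 exonic bases with Gm43361, an unclassified gene on the opposite strand. Its level lay between those of Atp2b1 and Atp2b2, with no overlap with either. Atp2a2 held 99.9% ± 0.126 (SD, n = 2) of the summed TPM of the SERCA genes. Atp2a1, the SERCA of fast muscle, was at 0.02 and 0.00 TPM, and Atp2a3, the SERCA of blood and epithelial cells, at 0.01 and 0.19 TPM. The PMCA genes together had 2.20-fold the summed TPM of the SERCA genes in replicate 1 and 2.03-fold in replicate 2.

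Ordered by mean TPM, the genes ran Atp1b1, Atp1b2, Atp1b3, Atp2b1, Atp2a2, Atp2b2 and Atp2b3, and each area alone gave this order for all 7. No 2 neighbours overlapped, but the gap between Atp1b3, with a lower value of 100.26 TPM, and Atp2b1, with a higher value of 99.78 TPM, was smaller than the spread of either gene. With 2 areas, a permutation of area labels cannot bring the difference between neighbouring genes to 0.05, so no test is given. The order holds per transcript length. By counts per 1e6 gene counts, which also grow with transcript length, Atp2b1 with 595, Atp2b2 with 430 and Atp2a2 with 324 counts per 1e6 stood above Atp1b2 with 281 and Atp1b3 with 169. Atp1b1 stayed first with 911, and Atp2b3 last with 38.3.

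**Figure D1:**
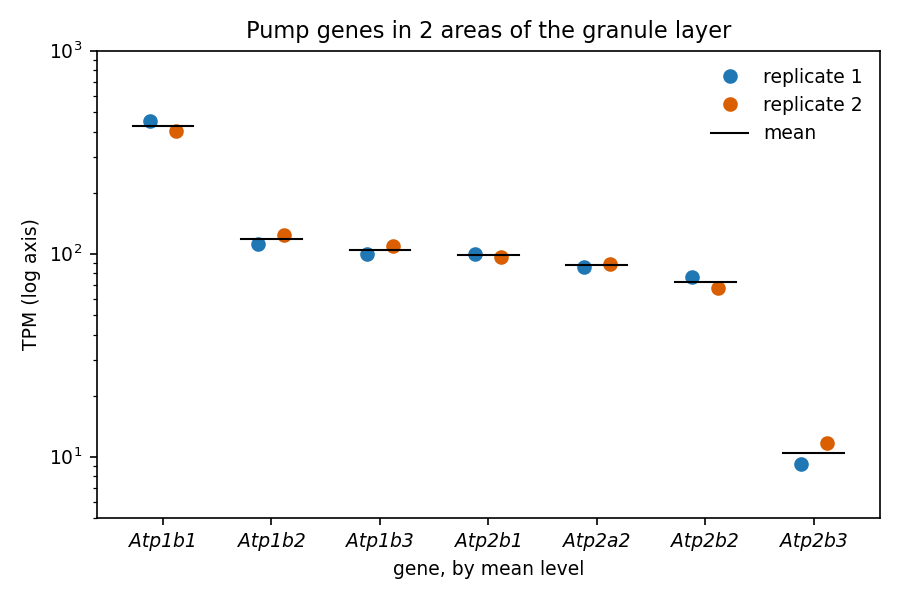
Level of each pump gene in TPM on a log axis, with replicate 1 and replicate 2 as points and their mean as a line. Atp1b1 stands highest at 452 and 402 TPM, 5 genes lie between 67.7 and 123 TPM, and Atp2b3 is lowest at 9.16 and 11.7 TPM.

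**Figure D2:**
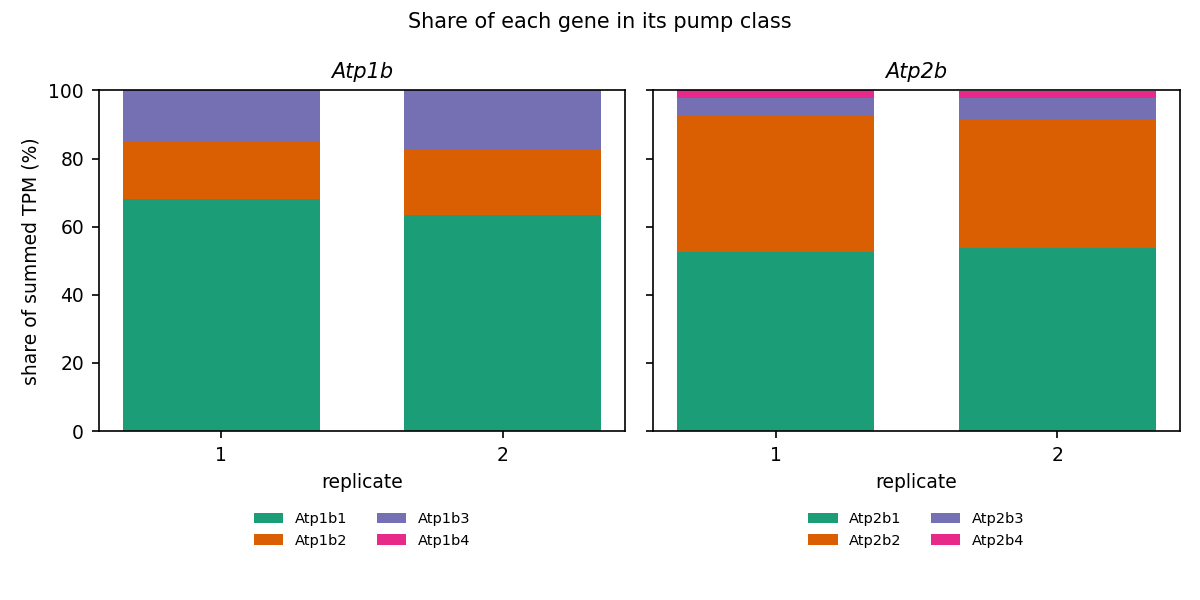
Share of each gene in the summed TPM of its class, in percent, for sodium pump beta genes (Atp1b) and plasma membrane calcium pumps (Atp2b), with 1 bar for each replicate. Atp1b1 fills 68.0% and 63.4% of the beta bars, and Atp2b1 52.5% and 53.7% of the Atp2b bars.

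The transcript estimates divided Atp2a2 between its forms in nearly the same proportion in both areas. Atp2a2-202, whose short end is shown above and which encodes the 998-residue form known as SERCA2a, took 60.4% of the gene's TPM in replicate 1 and 59.4% in replicate 2. Atp2a2-201, with the longer end and 1044 residues, the form known as SERCA2b, took 39.6% and 40.6%. The forms differed by more than the spread between areas. These shares are estimates that divide reads among overlapping transcripts, and the deposited lengths of the forms, 4314 and 4491 bases, differ from the 3984 and 4486 bases of the later annotation used for names. Atp2a2-203, annotated as a target of nonsense-mediated decay, has 1044 residues like Atp2a2-201. It took 0.0231% in replicate 1 and 0% in replicate 2, from 1.19 and 0 counts. Its deposited length, 3534 bases, differs from the 5674 bases of the later annotation. How much the shares depend on these lengths was not tested. Whether reads of Atp2a2-203 were credited to Atp2a2-202 was not tested either, so the order of the forms is that of the estimates only.

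The transcript estimates placed most Atp2b2 RNA at the proximal start. Atp2b2-201, which begins at base 113891539 of chromosome 6 beside the proximal window shown above, took 83.1% in replicate 1 and 79.0% in replicate 2 (81.0% ± 2.95, SD, n = 2). Transcripts from the distal start took 14.8% and 19.1% (17.0% ± 3.07), shared by Atp2b2-203 with 8.63% and 12.5% and by Atp2b2-206, annotated as a target of nonsense-mediated decay, with 6.15% and 6.60%. Atp2b2-203 and Atp2b2-201 both encode 1198 residues. Atp2b2-202, which begins at the middle start and encodes 1243 residues, took 0.0913% and 0.0738%, from 5.59 and 3.99 counts. Atp2b2-204, a retained intron transcript that begins at base 113891370, took 2.00% and 1.83% and was not counted with any of the 3 starts. The ranges of the 3 starts did not overlap. Coverage of the 5′ ends by reads was not examined. The deposited length of Atp2b2-203, 7033 bases, differs from the 8877 bases of the later annotation, and how much the distal share depends on this was not tested.

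Atp2b3 was carried mainly by Atp2b3-203, the transcript with the 154-base exon shown above. It took 60.5% of the gene in replicate 1 and 63.3% in replicate 2 (61.9% ± 2.01, SD, n = 2), and it encodes 1173 residues, the form known as variant a. Atp2b3-201, with the other end and 1144 residues, took 39.5% and 34.2%. Atp2b3-202, with neither segment and 1220 residues, had 0 counts in replicate 1, which allows up to 0.450% of the gene's counts, and 21.43 counts or 2.49% in replicate 2. The estimate for this longest form thus differed between the areas, and 21.43 counts give it little precision.

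The other genes were carried almost wholly by 1 transcript. Atp1b1-201, with 304 residues, took a mean of 99.8% of its gene. Atp1b2-201, with 290 residues, took 96.2%, and Atp1b3-201, with 278 residues, took 98.4%. Atp2b1 was counted with 1 transcript only, of 1220 residues, so its forms could not be told apart.

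**Figure D3:**
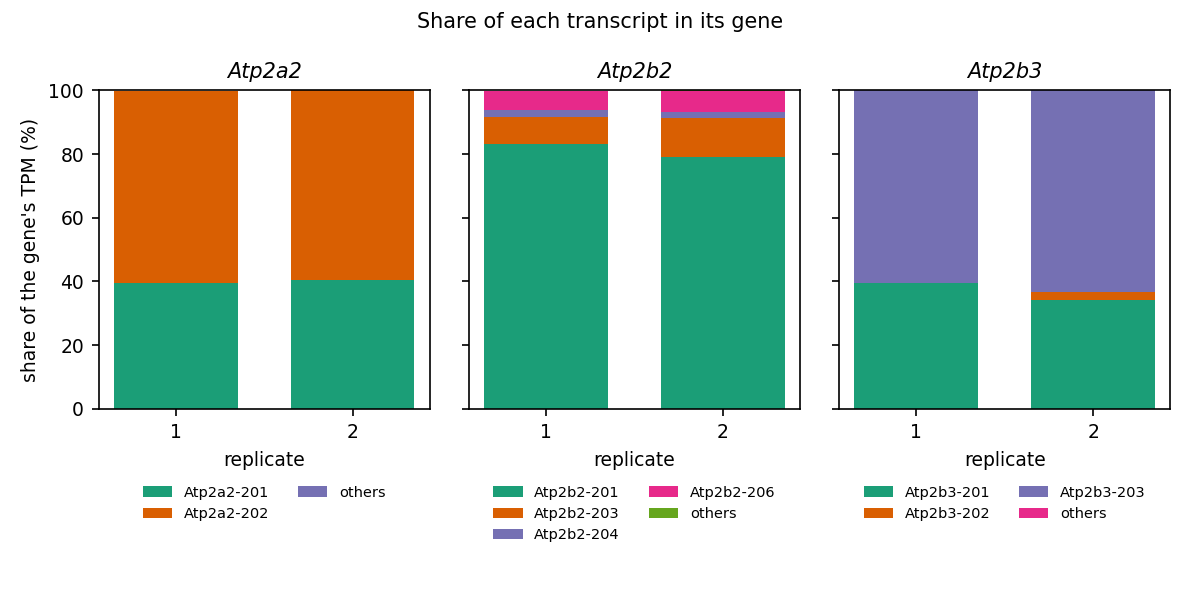
Share of each transcript in the TPM of Atp2a2, Atp2b2 and Atp2b3, in percent, with 1 bar for each replicate and transcripts under a mean of 1% joined as others. Atp2a2-202 takes 60.4% and 59.4%, Atp2b2-201 83.1% and 79.0%, and Atp2b3-203 60.5% and 63.3%.

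Between the areas, the pump genes differed little in size, though 5 of the 7 differed by more than counting error. Each gene's counts were compared by a two-sided exact binomial test against the libraries' share of all gene counts, with Benjamini-Hochberg adjustment over 16502 genes and a threshold of 0.05. The test compares these 2 libraries and not conditions, and it takes reads as independent, which amplified reads without molecular identifiers are not. By it 7868 genes, or 47.7% of those tested, were called in either direction, 24.0% higher in replicate 1 and 23.7% higher in replicate 2. Among the 8155 genes with at least 500 summed counts the share was 52.5%, and the lowest summed count of a pump gene was 1498. The count of 5 in 7 is to be read against this background, under which most genes of such depth were called.

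The genes called higher in replicate 1 were Atp1b1 and Atp2b2. Atp1b1 had a log2 ratio of replicate 2 over replicate 1, on the TPM + 1 scale, of -0.17 (adjusted p = 3.73e-22, exact binomial test). For Atp2b2 it was -0.18 (adjusted p = 1.70e-12, exact binomial test). The genes called higher in replicate 2 were Atp1b2, Atp1b3 and Atp2b3. Their log2 ratios were 0.13, 0.12 and 0.32, with adjusted p of 8.25e-07, 3.91e-05 and 5.13e-06 by the exact binomial test. Atp2b1, at -0.04, and Atp2a2, at 0.04, did not pass, with adjusted p of 0.132 and 0.0977 by the exact binomial test. The beta subunit genes thus moved in both directions, as did the Atp2b genes.

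The median of the 7 log2 ratios was 0.04, beside -0.01 over all genes tested. Their median size without sign was 0.13, beside 0.21 over all genes tested and 0.16 over the 9015 with a mean of at least 5 TPM. The widest relative difference, that of Atp2b3, was also that of the gene with the fewest counts. When every count was divided by 10, to allow 10 reads per molecule, the same exact binomial test called 0 of the 7 genes after adjustment, beside 114 of 16483 genes, and 2 of the 7, Atp1b1 and Atp2b2, had an unadjusted p under 0.05. The markers of other cells also differed between the areas. Of the listed markers, 6 of 8 for granule neurons and 7 of 8 for oligodendrocytes were called higher in replicate 2, and 4 of 8 for Bergmann glia and astrocytes, 6 of 7 for endothelial cells and 5 of 5 for red blood cells higher in replicate 1. Over all genes tested, 23.7% were called higher in replicate 2 and 24.0% higher in replicate 1. Of the molecular layer interneuron markers, 2 of 4 were called, both higher in replicate 1. The lists that follow were called in both directions. For Purkinje cells 3 of 8 were higher in replicate 2 and 2 in replicate 1, and for mural cells 4 and 2 of 7. For unipolar brush cells it was 2 and 2 of 4, for Golgi cells and other inhibitory neurons 1 and 3 of 6, and for microglia 1 and 3 of 6. The part of these marker differences in those of the pump genes was not tested.

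**Figure D4:**
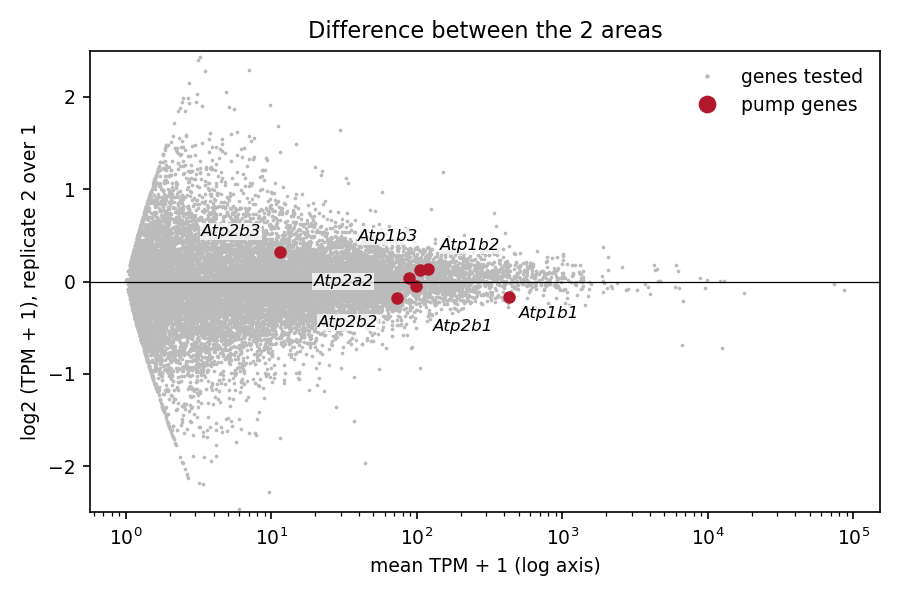
Log2 ratio of TPM + 1 in replicate 2 over replicate 1 against the mean TPM + 1 on a log axis, with each gene tested as a grey point, the pump genes in red, and 21 genes beyond the vertical axis left out. The pump genes lie between -0.18 for Atp2b2 and 0.32 for Atp2b3, inside the cloud of genes of like level.

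Small membrane proteins that tune the sodium pump were present, while Atp4a, Atp4b and Atp12a, which encode proton pump subunits related to it, had 0 counts in both areas. Of the 7 FXYD genes, Fxyd1 (phospholemman) was at 64.6 and 64.7 TPM, Fxyd6 at 54.7 and 55.8, and Fxyd5 at 11.3 and 5.92. Of the list, 6 were tested and 3 called, all higher in replicate 1. Over all genes tested, 47.7% were called and 24.0% were higher in replicate 1. Fxyd1 and Fxyd6 were not called. Besides Fxyd5, the calls were Fxyd2, with 10 counts in replicate 1 and 1 in replicate 2, and Fxyd7, with 16 and 3, named after their values were seen. Among the Nkain genes, whose proteins bind the beta subunit, Nkain4 led at 18.8 and 30.4 TPM, followed by Nkain1 at 5.42 and 2.62 and Nkain2 at 0.81 and 2.13. Of these 4 genes, 1 was called in each direction.

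Partners of the plasma membrane calcium pumps were abundant. Calm2, which encodes calmodulin, the activator of these pumps, was at 5987 and 6464 TPM. Nptn (neuroplastin), a subunit that holds the pumps in the membrane, was at 483 and 482 TPM, and the related Bsg (basigin) at 442 and 514. Of the 4 partner genes reported here, 3 were called, all higher in replicate 2, beside 23.7% over all genes tested, and Nptn was not called. The Golgi calcium pump Atp2c1 was at 26.4 and 24.6 TPM. It was the highest of the 5 other calcium pump genes, of which 3 were tested and 1 was called, higher in replicate 2. The called gene was Atp2a3, with 1 count in replicate 1 and 14 in replicate 2.

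The small regulators of SERCA showed the widest difference in the pathway. Sln (sarcolipin), an inhibitor of SERCA, was at 53.9 TPM in replicate 1 and 0.58 TPM in replicate 2, from 384 and 4 counts. Its log2 ratio was -5.12 (adjusted p = 1.09e-102, exact binomial test), and of the listed pathway genes reported here it was the only one called with a log2 ratio of at least 1 in size. Mrln (myoregulin) was at 73.4 and 78.7 TPM and Pln (phospholamban) at 3.60 and 2.66, and neither was called. Atp2a2 itself was at 86.5 and 88.8 TPM in the same areas.

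The listed genes of calcium exchange, release and store entry were, apart from Slc24a5, lower than the pump genes other than Atp2b3. Of the sodium calcium exchanger genes, Slc8a1 was at 10.2 and 13.1 TPM and Slc8a3 at 5.69 and 4.58. Slc24a5, an exchanger known from pigment cells, stood at 110 and 134 TPM, above Atp1b3 in both areas. Its exons share 921 of 2330 bases with Myef2 on the opposite strand, so its reads are uncertain. Of the 9 exchanger genes, 8 were tested and 6 called, 4 of them higher in replicate 1. Of the 11 genes of calcium release and store entry, 10 were tested and 7 called, 6 of them higher in replicate 1. Over all genes tested, 47.7% were called and 24.0% were higher in replicate 1. Stim2, a sensor of store calcium, led at 22.2 and 18.5 TPM, before the release channels Ryr2 at 12.9 and 12.1 and Ryr3 at 11.7 and 6.56. Each of these was below Atp2a2 in both areas.

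**Figure D5:**
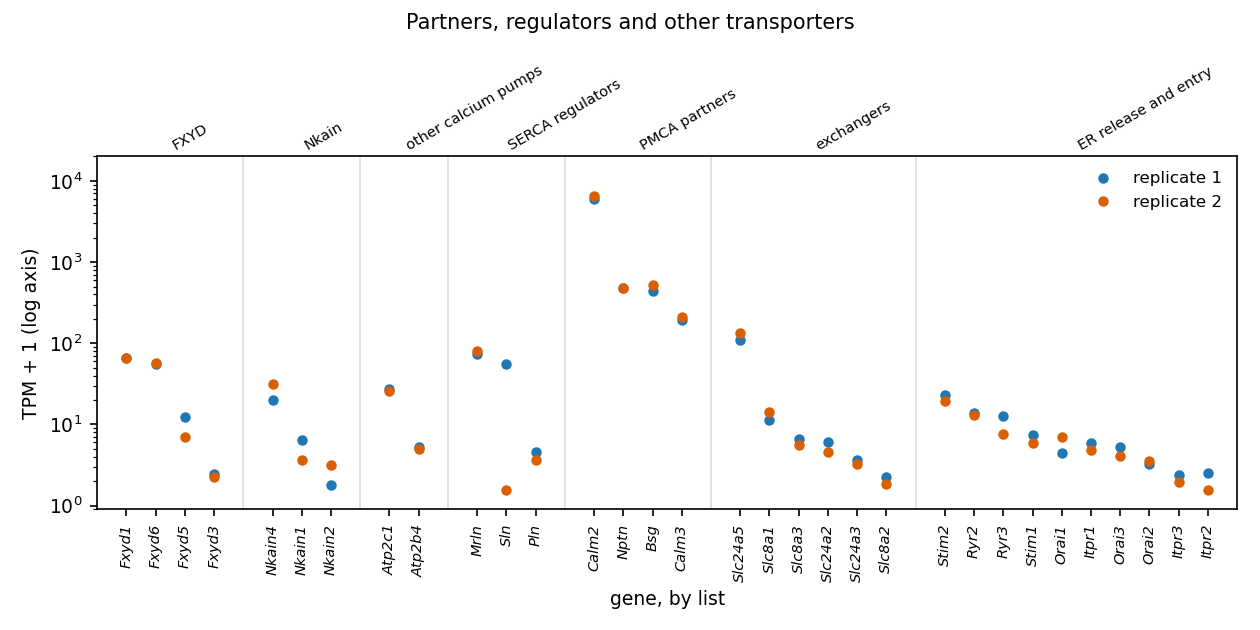
TPM + 1 on a log axis of the listed partner, regulator and transporter genes with a mean of at least 1 TPM, grouped by list, with a point for each replicate. Most pairs of points lie close together, while those of Sln lie at 53.9 and 0.58 TPM.

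The genes nearest in level were found among the 10816 other protein-coding genes detected in both areas, by the distance of log2(TPM + 1) over the 2 libraries. Nearest to Atp1b1 were Rps28, a ribosomal protein gene, at 460 and 413 TPM (distance 0.0469) and Fmc1 at 433 and 394 TPM (0.0661). Nearest to Atp2a2 were Ensa at 85.9 and 88.4 TPM (0.0118) and Diras2 at 87.2 and 88.9 TPM (0.0123). Nearest to Atp2b1 were Cct5, a chaperonin subunit, at 99.6 and 96.9 TPM (0.00281) and Fgf14, a partner of sodium channels, at 99.1 and 98.1 TPM (0.0226). With 2 libraries of 1 group this is a likeness of level only.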

How the data were processed

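RNA of 2 granule layer areas was measured, with 1 library each. The deposited expected counts are the authors' estimates per gene and transcript, which share reads among similar features, per the file headers. The deposited TPM values and FPKM values were scaled by the authors to transcript length and library size, per the file headers. The deposited percent column holds the part of a gene's abundance that falls on each transcript. Reads were assigned on mm10 with annotation M4, per the deposited notes. Which aligner, counting program and strand setting they used is not given in the sources used here.

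Gene names, types and coordinates came from GENCODE M21 on GRCm38, by gene ID without version: 42462 of 43346 IDs matched, and unmatched IDs held 0.432% and 0.435% of gene counts. Levels are deposited TPM, with the mean and SD over both areas. Expected counts were rounded for the exact binomial test (SciPy 1.17.1, two-sided, Benjamini-Hochberg adjustment, threshold 0.05, genes with at least 10 summed counts). It was tested on simulated data of independent counts only, which share its assumption and so cannot show its error with amplified reads. Its p-values cover counting error between these libraries, whose spread may be technical. The totals allow a count of 0 to stand for up to 3 counts, or 0.150 and 0.156 per 1e6 gene counts. The log2 ratios use a pseudocount of 1. Alternatives were edgeR 4.0.16 TMM and DESeq2 1.42.0 size factors, no count filter, counts divided by 10, pseudocounts of 0.1 and 5, FPKM in place of TPM, other denominators and transcript sets, counts in place of TPM, and leaving out a replicate.

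The 7 genes and all lists were chosen with earlier results of these data known. Named in full were the 7 genes. Of each pathway list the 3 highest in mean TPM were named, with any called gene whose log2 ratio was at least 1 in size. Of transcripts those with a mean share of at least 10% were named, and for 3 classes the 2 genes nearest in level to the highest member. Atp2a1, Atp1b4, the proton pump genes, Gabra6, Gng13, Ppp1r17, Aldoc, Gdf10, Myef2, Nme7, Gm43361 and the transcripts under 10% were named after their values were seen. Strit1 matched no gene name. Protein identity was planned and was not analysed here. Some listed genes are not reported here.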

Additional observations from a re-analysis of the deposited data

How the results depend on the processing

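The count of 5 of the 7 genes beyond counting error stayed at 5, with the same 5 genes, under TMM scaling, DESeq2 size factors and no filter on counts. With counts divided by 10 it was 0 by the exact binomial test, with 2 at an unadjusted p under 0.05, so these calls rest on reads being independent. The order of levels was the same for all 7 with protein-coding transcripts only and in each area alone. Rescaled FPKM returned the TPM, and leaving mitochondrial genes and Malat1 out of the total scales the genes of a library alike, so neither bears on the order. By counts per 1e6, not per length, 2 of the 7 kept their place. Without those genes in the total, levels rose, for Atp1b1 from 427 to 554 TPM. The share of Atp2b1 among the plasma membrane calcium pumps was 54.6% with expected counts in place of TPM, beside 53.1%. In the same way Atp2b2 was at 39.4% beside 39.0%, Atp2b3 at 3.52% beside 5.65% and Atp2b4 at 2.44% beside 2.25%. Among the beta genes, Atp1b1 was at 66.9% beside 65.7%, Atp1b2 at 20.7% beside 18.1% and Atp1b3 at 12.4% beside 16.2%. The log2 ratios kept their sign with pseudocounts of 0.1 and 5 and with TMM-scaled counts. No paired analysis was possible because the design has 1 group. With 2 areas, differences between areas and between animals cannot be separated, and the estimates of Atp2b2-202 and Atp2b3-202 rest on few counts.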

Other observations

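Slc24a5 lies at chr2:125068124-125088677 on the plus strand (mm10), and Myef2 at chr2:125084628-125123661 on the minus strand. Their exons share 921 bases. Slc24a5 was at 110 and 134 TPM, with log2 ratio 0.28, and Myef2 at 265 and 253 TPM, with log2 ratio -0.06. How the shared bases bear on either level was not tested.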
